A study of Mus musculus with 2 samples.

Results

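Conventional dendritic cells with little Cd209a or Clec10a RNA were described among CD45.2+CD11b+ cells sorted from mouse spleen, in 1 library of low B12 and 1 of high B12 treatment (single-cell RNA sequencing from the 3′ end). CD45.2 is a variant of the leukocyte antigen CD45, CD11b is the integrin subunit encoded by Itgam, and the cells had been stored viably frozen before the DAPI sort. The title of the series sets the comparison in Tet2-deficient blood formation, but the labels give no genotype, strain, age, B12 dose, treatment time or number of mice for either group. With 1 library per group no test between conditions was possible, and library and B12 cannot be told apart as sources of a difference. Every interval is at 95% and covers counting error only.

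The cells were chosen by their own RNA. A barcode had to hold at least 500 UMIs (unique molecular identifiers, each counting 1 captured RNA molecule), at least 200 genes and at most 10% mitochondrial UMIs. It also had to hold under 1% of its UMIs in the neutrophil genes S100a8 and S100a9 and no UMI of the B cell genes Cd79a and Cd79b or the NK cell gene Ncr1. Members then held at least 4 UMIs of Flt3, Clec4a4, Esam, Zbtb46 and Dnase1l3 together, at least 10 of the MHC class II gene H2-Aa, under 3 of Cd209a and Clec10a together, under 5 of the 3 C1q genes and under 3 of the cycling genes Mki67 and Top2a. Of 13258 cells, 338 met the rule, 220 of 6510 in the low B12 library and 118 of 6748 in the high B12 library. The values of the rule genes are therefore a description and support nothing.

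Conventional dendritic cells take up antigen, load it on MHC molecules and show it to T cells. They depend on the cytokine receptor Flt3 and express the transcription factor Zbtb46. In the spleen they fall into cDC1, which express Xcr1 and Clec9a and rely on Irf8 and Batf3, and cDC2, which express Sirpa, carry CD11b and include a Notch2-dependent form marked by Esam, Cd4 and Clec4a4. Cells of either type can mature, and they then gain Ccr7, which guides them to T cell zones, and the actin-bundling protein gene Fscn1.

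The 5 dendritic cell genes were found in both libraries. Levels are CPM, that is, UMIs of a gene summed over the member cells of a library and scaled to a fixed total of all their UMIs, which for 3′ UMIs needs no length correction. Flt3 stood at 259 CPM in the low and 267 CPM in the high B12 library. Zbtb46 stood at 124 and 96.6 CPM, Dnase1l3, a secreted nuclease gene, at 342 and 262 CPM, and the inhibitory lectin gene Clec4a4 at 67.0 and 68.8 CPM. Itgax, which encodes CD11c and was not used by the rule, stood at 243 and 196 CPM and had a UMI in 164 of 220 and 93 of 118 cells. Of the 6 marker genes Itgax alone was free of the rule, and it was present in both libraries. Members are not free of Cd209a or Clec10a RNA. In the low B12 library 184 members had no UMI of Cd209a or Clec10a, 24 had 1 and 12 had 2, and of the high B12 members 88 had 0, 18 had 1 and 12 had 2.

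Just outside the rule, 10 cells in each library had 3 UMIs of Cd209a and Clec10a. For the 5-gene sum, 37 cells in the low and 19 in the high B12 library lay at 3 UMIs, just outside, against 34 and 20 members at 4 UMIs, just inside. Members had a median of 9432.5 UMIs and 2814.5 genes in the low B12 library and 10715 UMIs and 2868 genes in the high B12 library. Their UMIs summed to 2312308 and 1294082. Doublets were kept, and Scrublet called 8 members (3.64%) in the low and 2 (1.69%) in the high B12 library as such. Of all cells it called 7.30% and 4.88%. The libraries shared 4 cell barcodes, of which 0 belonged to members.

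Members were 3.38% of all cells in low B12 (exact binomial interval 2.95 to 3.85%) and 1.75% in high B12 (1.45 to 2.09%). Among the cells that passed the limits on S100a8, S100a9, Cd79a, Cd79b and Ncr1, the shares were 9.86% (8.65 to 11.2%) and 6.75% (5.62 to 8.03%). Among cells that met the 5-gene and H2-Aa limits, 67.1% (61.7 to 72.1%) and 58.4% (51.3 to 65.3%) were members, intervals that overlap. The rule counts raw UMIs and so reads depth. Thinning to 3000 UMIs before the rule left out cells with fewer UMIs. It kept 5263 of 6510 low and 4675 of 6748 high B12 cells. Of the cells kept, 1.14% and 0.877% were members, and the difference of −1.63 percentage points became −0.263 points. Lower depth and the loss of cells cannot be told apart in that value.

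Members fell into groups that the rule had not asked for. Each cell was scored for 8 short sets of defining genes of other cell types or states, and a cell held a set when it had at least 2 of its UMIs. The cDC1 set (Xcr1, Clec9a, Cd8a, Gcsam) was held by 42 low B12 members (19.1%, 14.1 to 24.9%) and 28 high B12 members (23.7%, 16.4 to 32.4%), shares whose intervals overlap. The mature dendritic cell set (Ccr7, Fscn1, Ccl22, Il4i1, Cacnb3) was held by 64 low B12 members (29.1%, 23.2 to 35.6%) and 20 high B12 members (16.9%, 10.7 to 24.96%). These intervals overlap. Thinned to 3000 UMIs, mature shares were 20.2% of 218 (15.1 to 26.1%) and 8.70% of 115 cells (4.25 to 15.4%), and those intervals overlap slightly. Cells with at least 10 UMIs of that set numbered 38 (17.3%, 12.5 to 22.9%) and 8 (6.78%, 2.97 to 12.9%), and the highest cell held 73 and 87 UMIs.

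The cDC1 and mature sets were nearly exclusive at 2 UMIs: 1 low B12 and 2 high B12 members held both. None of the 8 sets was held by 89 low B12 (40.5%) and 44 high B12 members (37.3%). A monocyte and macrophage set of 9 genes, among them Ly6c2, Ace and Treml4, was held by 37 (16.8%) and 25 members (21.2%). Siglech, a defining plasmacytoid gene, had 0 UMIs in the low and 2 in the high B12 library, and Cd3e and Cd3g had 0 in both.

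**Figure D1:**
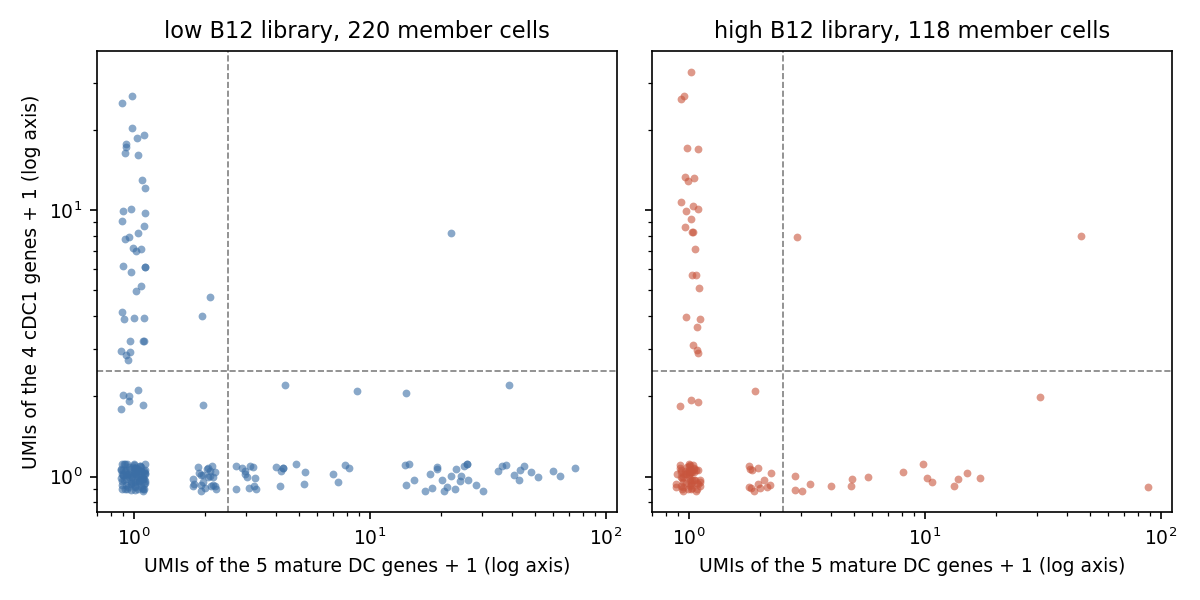
UMIs of the 4 cDC1 genes (vertical) against those of the 5 mature dendritic cell genes (horizontal), each plus 1 on a log axis with small random displacement, 1 point per member cell and 1 panel per library. Dashed lines mark 2 UMIs; past both lines lie 1 cell of 220 in the left and 2 of 118 in the right panel.

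**Figure D2:**
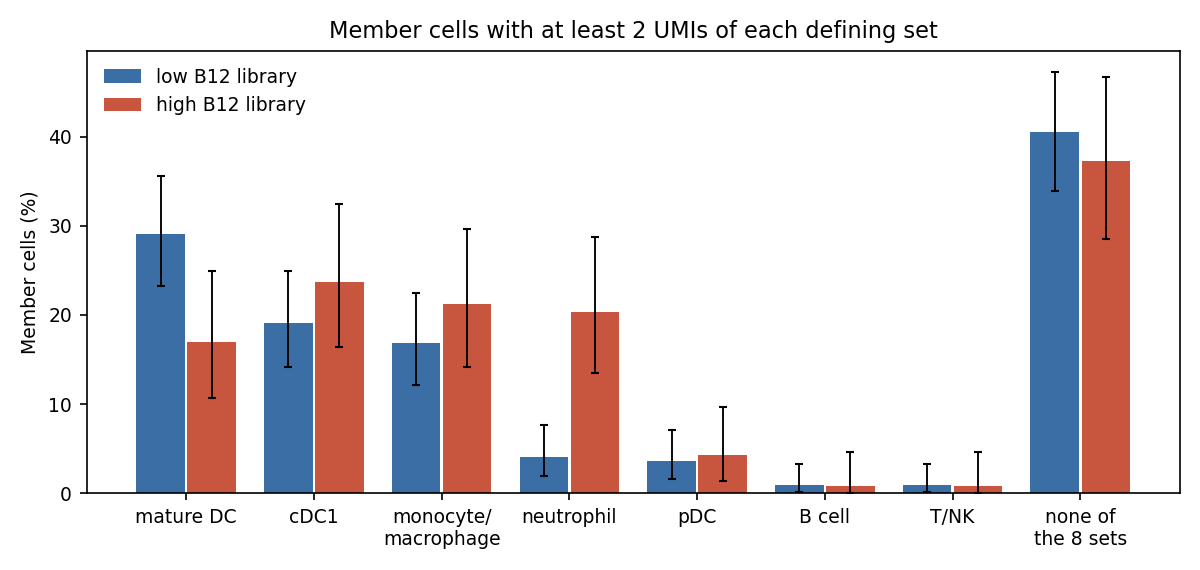
Percent of member cells holding at least 2 UMIs of each defining set, in the low (blue) and high B12 library (red), with exact binomial intervals; the erythroid and platelet set, held by 1 cell in each library, is not drawn. The mature share is 29.1% and 16.9%, and the neutrophil share 4.09% and 20.3%.

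Free RNA can put UMIs into cells that do not make them, so B cells of the same libraries (at least 5 UMIs of Cd79a and Cd79b, 1741 and 617 cells, median 6015 and 6367 UMIs) were scored too. The cDC1 set was held by 0% and 0.324% of B cells, far below the members. The mature set was held by 10.7% and 8.43% of B cells, which express Ccr7 themselves, while Fscn1 alone was present in 1.21% and 0.810% of B cells against 21.4% and 7.63% of members. Thinned to 3000 UMIs, Fscn1 was present in 0.468% and 0.670% of B cells and in 17.0% and 5.22% of members. The monocyte and macrophage set was held by 10.6% and 9.40% of B cells.

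The neutrophil set (Retnlg, Camp and others) was held by 4.09% and 20.3% of members and by 2.70% and 15.2% of B cells, so it was high in both cell types of the high B12 library. S100a9 had a UMI in 41.4% and 84.7% of members and in 33.5% and 81.0% of B cells. Neutrophil genes were thus higher in the high B12 members (Retnlg 3.89 and 32.5 CPM, Camp 10.8 and 39.4 CPM), and B cells moved the same way. All 9 listed neutrophil genes were detected, and they summed to 330 and 825 CPM in members and to 491 and 1096 CPM in the cells of the filter with a 5-gene sum under 4. The part of neutrophil RNA in the other differences was not tested.

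Cells were then placed in classes. Those with both the mature and cDC1 sets stood apart, and those with either were placed by it first. The monocyte and macrophage class therefore held only cells without those sets (19 low and 16 high B12 cells). In levels by class, cells of a set are the cells of that class. Each class had its own leading genes, given as a description because the sets made the classes. Irf8, the factor of cDC1, stood at 1360 and 1461 CPM in cells of the cDC1 set against 89.0 and 62.9 CPM in the other members, and the cystatin gene Cst3 at 13537 and 15738 CPM against 1454 and 1753 CPM. Naaa, Tlr3, a sensor of double-stranded RNA, Rab7b, Ifi205 and Cd24a were also among the leading genes of that class. Cells of the mature set were led by Fscn1, Dkk2, Cacnb3, Ccr7, Socs2, Il4i1, the fatty acid-binding gene Fabp5, Apol7c, Anxa3 and Tmcc3. Relb, an NF-kB subunit, stood there at 777 and 644 CPM against 186 and 167 CPM in cells of none of the sets.

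Cells of none of the sets carried some genes known from cDC2. They were led by Cd7, Ctnnd2, Spns3, Adgrl3, a latrophilin gene at 1499 and 1132 CPM, Ffar2, a receptor for short-chain fatty acids, and the rule gene Clec4a4 at 117 and 114 CPM. Sirpa stood at 325 and 276 CPM in these cells and at 34.8 and 16.9 CPM in those of the cDC1 set. In the mature set it stood at 300 and 222 CPM, and in the monocyte and macrophage set at 358 and 312 CPM. Esam, also a rule gene, was lower in cells of none of the sets than in the mature set (23.3 against 53.7 and 10.6 against 32.5 CPM). The high B12 values rest on 4 and 6 UMIs, with intervals that overlap (2.89 to 27.1 and 11.9 to 70.7 CPM). Irf4 stood at 19.6 and 26.5 CPM in cells of none of the sets, and Wdfy4, of the cDC1 list, at 936 and 660 CPM. Itgam, whose product was the sort antigen, stood at 101 and 90.1 CPM in cells of none of the sets and at 11.6 and 50.8 CPM in those of the cDC1 set. Cells of the monocyte and macrophage set had Cx3cr1, Lyz2 at 5460 and 3841 CPM, Apoe and Csf1r among their leading genes.

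**Figure D3:**
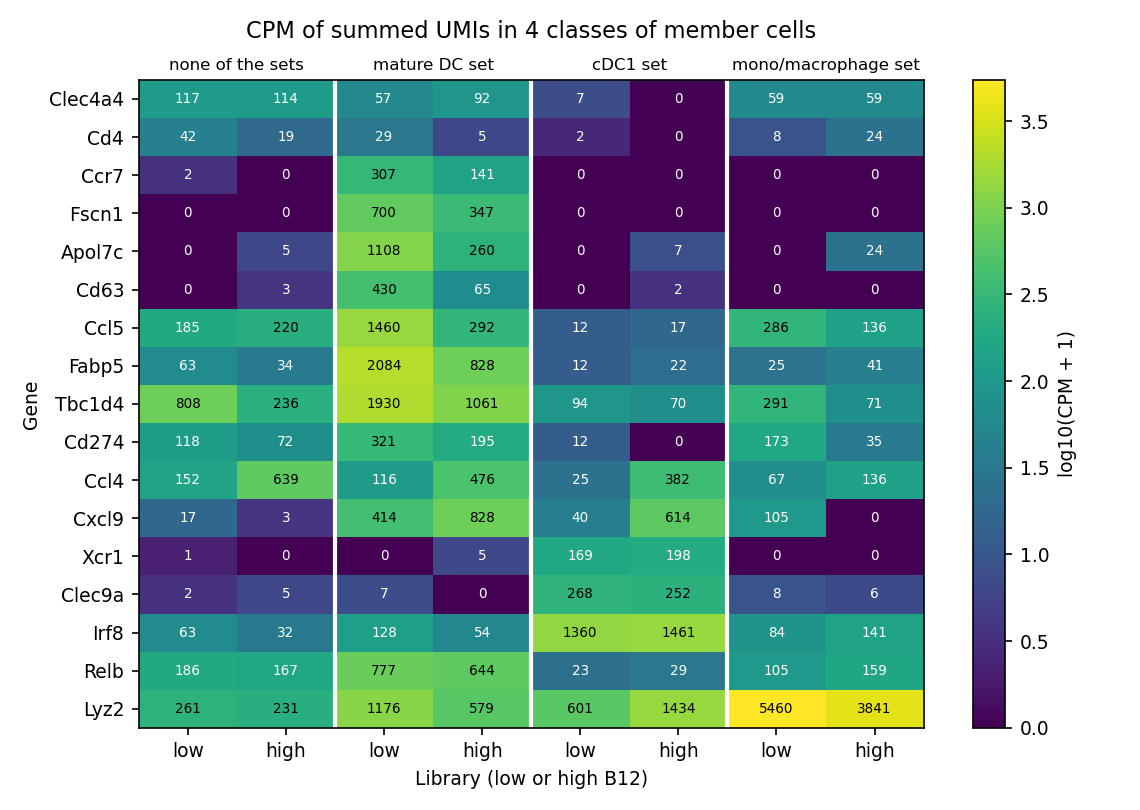
CPM of 17 genes (rows) in 4 classes of member cells, each in the low and high B12 library (columns); colour is log10(CPM + 1) and the printed numbers are CPM. In cells of the mature set Apol7c stands at 1108 and 260 CPM and Cd63 at 430 and 65.0 CPM in the low and high B12 library; Ccr7 and Fscn1 are genes of that set and define the class.

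Cd209a and Clec10a dendritic cells, which met the same rule but for at least 3 UMIs of those 2 genes, numbered 84 and 72. The rule made this contrast, so its values are again a description. In the high B12 library the Cd209a cells also held NK cell list genes at 1668 CPM and T cell list genes at 151 CPM, against 628 and 1.13 CPM in the low B12 library, whose part was not tested. Of 1487 genes at 100 CPM or more in either kind of cell in each library, 24 (1.61%) were at least 2-fold higher in members in both libraries and 21 (1.41%) at least 2-fold lower. Members had more Irf8 (418 against 46.5 CPM in the low, 522 against 84.8 CPM in the high B12 library), more of the helix-loop-helix gene Id2 (644 against 179 and 538 against 162 CPM) and more Tbc1d4, Mreg, Fabp5, Ifi205, Ppt1, Tmcc3 and Adam23. Part of this excess lay in single classes. Outside the cDC1 set, members had 89.0 and 62.9 CPM of Irf8. Their Ifi205 stood at 7.4 and 8.2 CPM, against 4.5 and 16.2 CPM in the Cd209a cells. Outside the mature set, members had 38.6 and 30.2 CPM of Fabp5, against 24.9 and 48.6 CPM in the Cd209a cells. Tbc1d4 was still higher in cells of none of the sets (808 against 181 and 236 against 72.3 CPM). Ccr7 stood at 77.4 and 24.0 CPM in members and had 0 UMIs in the Cd209a cells of both libraries. Members had less of Clec4b1, Fcor, Wfdc17, the chemokine genes Ccl9 and Ccl6, the inhibitory Fc receptor gene Fcgr2b, Selenop, Cx3cr1, Klrd1 and Bach2. Itgam was lower too (67.9 against 168 and 58.7 against 138 CPM), as was the chemokine receptor gene Ccr2 (124 against 284 and 122 against 253 CPM). The lower genes also differed by class. In cells of none of the sets Itgam (101 and 90.1 CPM) and Klrd1 (313 and 339 CPM, against 533 and 498 CPM in the Cd209a cells) were higher than in all members. Ccr2 (36.8 and 18.6 CPM) and Cx3cr1 (20.9 and 53.0 CPM) were not. Itgax stood near the same level in members and Cd209a cells (243 against 253 and 196 against 211 CPM).

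High and low B12 members were compared by the ratio of their CPM, with an exact conditional binomial interval. A gene was called when it differed at least 1.5-fold with an interval that excluded 1. Of 6890 genes with at least 50 UMIs in both libraries together, 208 were called higher (3.02%) and 480 called lower (6.97%) in the high B12 library. Counts of called list genes over all members are to be read beside these shares, and those within a class beside the shares of that class. With the members of at least 3000 UMIs thinned to that number, 89 of 3116 genes were called higher and 233 lower, of which 21 and 130 were also called without thinning. The median log2 ratio over all 6890 genes was −0.04, with 45.2% of genes above 0. Fewer cells that carry a gene and less RNA per cell cannot be told apart in these sums, so the number of cells with a UMI is given for the genes that matter.

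The mature dendritic cell genes stood lower in the high B12 members. Of 12 listed genes 10 passed the count minimum, 8 were called lower and 0 higher, and the median log2 ratio was −1.33. Apol7c, of the apolipoprotein L family (chr15:77524852-77533316 on GRCm38), stood at 276 CPM in the low and 44.0 CPM in the high B12 library, 6.22-fold higher in low B12 (4.78 to 8.38), with a UMI in 34 of 220 and 10 of 118 cells. Fscn1 stood at 178 CPM in 47 cells and 57.2 CPM in 9 cells, and Ccr7 at 77.4 CPM in 40 cells and 24.0 CPM in 8 cells. The 5 highest cells held 44.9% of Apol7c and 27.2% of Fscn1 UMIs in the low B12 library. In the high B12 library they held 89.5% and 94.6%. Socs2, a feedback inhibitor of cytokine signals, stood at 75.2 and 18.5 CPM, and Il4i1, an amino acid oxidase, at 195 and 102 CPM. Cd40, the receptor for T cell help, was not called at 64.0 and 61.8 CPM, and neither was the chemokine gene Ccl22 at 20.3 and 16.2 CPM.

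Of the genes lower in the high B12 members, 103 met the rule for naming and the first 12 by rank were named. Among these 12, Cd63, Apol7c, Ccl5, Fabp5, Fscn1, Cxcl16, Tbc1d4, Dpp10 and Cd274 had their highest CPM in the mature set. This held among the 4 classes in both libraries, and the other genes that met the rule were not looked at in this way. For Fscn1, which helps define that set, this was fixed in advance. Cd63, a tetraspanin of late endosomes (chr10:128900989-128912822), stood at 108 CPM in 37 low B12 cells and 10.8 CPM in 8 high B12 cells, 9.63-fold higher in low B12 (5.82 to 18.5). The 5 highest cells held 37.8% of its UMIs in the low and 78.6% in the high B12 library. Ccl5, a chemokine that draws T cells, stood at 474 CPM in 112 cells and 143 CPM in 48 cells, 3.31-fold higher in low B12 (2.84 to 3.899). Fabp5 stood at 582 and 200 CPM, and its 5 highest cells held 30.2% and 74.1% of its UMIs. Cxcl16, a membrane-bound chemokine, stood at 102 and 32.5 CPM.

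Within the mature class itself (63 and 18 cells) several of these genes were also lower. Of 2399 genes, 117 were called higher (4.88%) and 245 lower (10.2%) there. Apol7c stood at 1108 CPM in 34 cells and 260 CPM in 6 cells, and Cd63 at 430 CPM in 36 cells and 65.0 CPM in 6 cells. Ccl5 stood at 1460 CPM in 47 cells and 292 CPM in 11 cells. Fabp5 stood at 2084 CPM in 54 cells and 828 CPM in 13 cells. All of these were called lower. The set's own genes define this class and are not read here. Relb was not called at 777 and 644 CPM. The class is not alike in both libraries, since 38 of the 64 cells with the set had at least 10 of its UMIs in low B12, and 8 of the 20 in high B12. Both the mature and the monocyte and macrophage sets were held by 12 low and 3 high B12 members, whose part was not tested.

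Without the cells of the mature set, an alternative added after the data were seen, 134 genes were called higher and 332 lower. Ccl5 then had a log2 ratio of −0.21 against −1.73 with all members, and Fabp5 −0.43 against −1.54. Tbc1d4 (−1.47 in both), Cxcl16 (−1.47 against −1.63), Cd274 (−1.38 in both), Frmd5 (−1.42 against −1.36) and Rasal2 (−1.33 against −1.35) hardly moved.

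**Figure D4:**
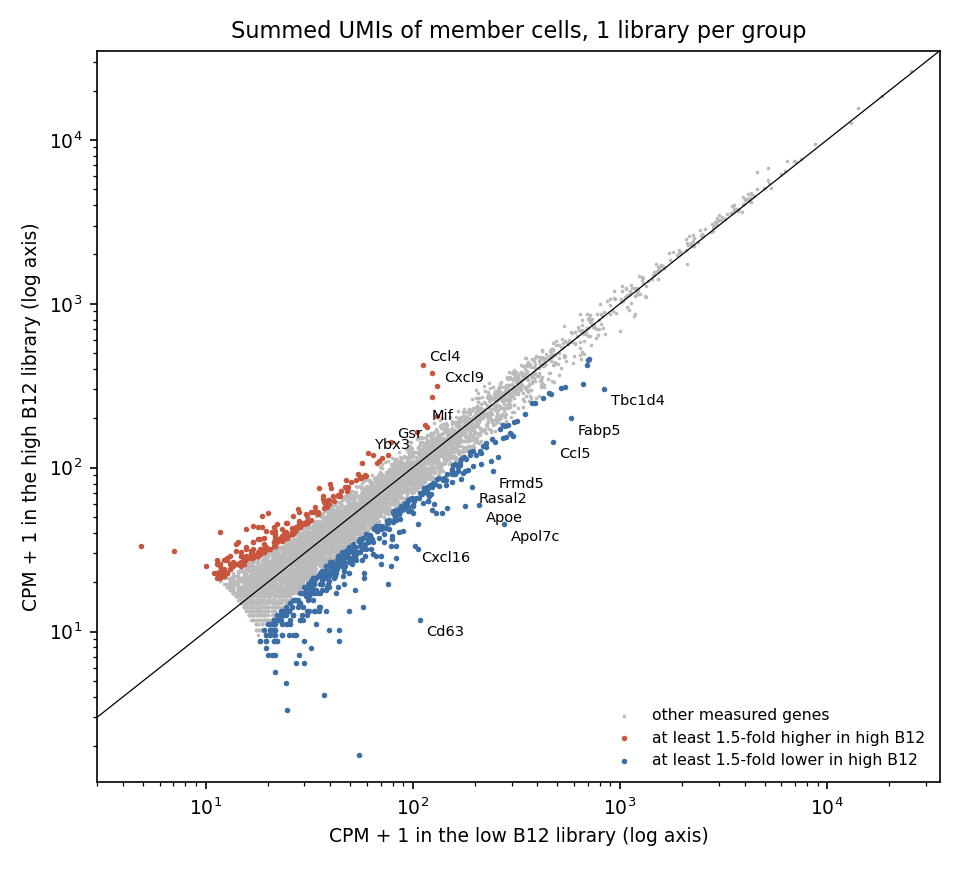
CPM + 1 of 6890 genes in member cells of the high (vertical) against the low B12 library (horizontal), both on log axes, with called genes in colour, the line of equal levels and some named genes. Ccl4 (111 and 420 CPM) and Cxcl9 (131 and 315 CPM) lie above the line, and Cd63, Apol7c, Ccl5 and Tbc1d4 below it.

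Tbc1d4, a regulator of vesicle traffic and glucose transporter recycling (chr14:101442360-101609191), stood at 840 CPM in 164 of 220 low B12 cells and 303 CPM in 63 of 118 high B12 cells, 2.77-fold higher in low B12 (2.49 to 3.10). It had less CPM in high B12 in each of 4 classes, with 808 and 236 CPM in cells of none of the sets, 1930 and 1061 CPM in the mature set, 291 and 70.7 CPM in the monocyte and macrophage set and 94.4 and 70.2 CPM in the cDC1 set, where the intervals overlapped (71.5 to 122 and 47.0 to 101 CPM). Frmd5 (243 and 94.3 CPM) and Rasal2, a Ras GTPase-activating protein gene (193 and 75.7 CPM), were also lower. Dpp10, among the leading genes of the mature set (484 and 260 CPM there, 22.9 and 12.5 CPM in the other members), stood at 138 and 51.8 CPM. Apoe, the lipid carrier gene, stood at 208.9 and 58.0 CPM. The 5 highest cells held 41.8% and 77.6% of Dpp10 UMIs and 37.1% and 61.3% of Apoe UMIs.

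Of the genes higher in the high B12 members, 14 met the rule for naming and 12 were named. Ccl4, an inflammatory chemokine gene (chr11:83662584-83664683), stood at 111 CPM in 42 low B12 cells and 420 CPM in 33 high B12 cells, 3.79-fold higher (3.27 to 4.42). The 5 highest cells held 50.4% and 56.4% of its UMIs. It was higher in each class, with 152 and 639 CPM in cells of none of the sets, 116 and 476 CPM in the mature set, 24.8 and 382 CPM in the cDC1 set and 67.4 and 136 CPM in the monocyte and macrophage set, where the intervals overlapped (38.5 to 109 and 85.9 to 203 CPM).

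Cxcl9, a chemokine induced by interferon gamma (chr5:92321347-92328079), stood at 131 CPM in 20 low B12 cells and 315 CPM in 15 high B12 cells, 2.41-fold higher (2.08 to 2.81). A few cells carried it: the 5 highest held 88.1% and 94.9% of its UMIs. By class it stood at 414 and 828 CPM in the mature set and at 39.7 and 614 CPM in the cDC1 set, while cells of none of the sets had 17.2 and 2.65 CPM. Its sum therefore rests on 4 and 10 high B12 cells of those 2 classes, out of 18 and 26.

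The other 10 named genes were 1.57 to 2.03-fold higher. They were Ybx3, a cold-shock domain RNA-binding gene (59.7 and 121 CPM), Gsr, glutathione reductase (77.4 and 143 CPM), Klrk1, which encodes the receptor NKG2D (63.6 and 119 CPM), Nop58, a nucleolar protein gene (55.8 and 106 CPM), Mif, a cytokine gene (114 and 182 CPM), Ranbp1, Pdia6, Rp9, Alyref and Fdps. Fdps, an enzyme of sterol synthesis, stood at 70.1 and 114 CPM, and its 5 highest cells held 29.0% and 53.1% of its UMIs. It was lower, not higher, in high B12 cells of none of the sets, with a log2 ratio of −0.50, and at a 5-gene sum of at least 6, with −0.25.

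The chemokine list was split. Of 17 measured chemokine and cytokine genes 2 were called higher (Ccl4, Cxcl9) and 5 lower. The 5 were Ccl5, Cxcl16, Cxcl10, Il15, a cytokine for NK and memory T cells (30.3 and 14.7 CPM), and Cxcl2, a neutrophil-attracting chemokine that stood at 36.3 CPM in 10 low B12 cells and 3.09 CPM in 3 high B12 cells. Tnf (146 and 151 CPM) and Ccl3 (58.8 and 76.5 CPM) were not called. Among 10 positioning receptors 2 were called higher, among them P2ry14 (23.8 and 44.8 CPM), and 2 lower. The latter were Ccr7 and Cxcr4 (38.9 and 24.7 CPM). Gpr183, the oxysterol receptor that places splenic cDC2, was not called at 196 and 159 CPM.

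Of 16 measured interferon gamma response genes 7 were called lower and 1, Cxcl9, higher, with a median log2 ratio of −0.38. Cd274, which encodes the checkpoint ligand PD-L1 (chr19:29367455-29388095), stood at 146 CPM in 112 cells and 55.6 CPM in 33 cells, 2.61-fold higher in low B12 (2.03 to 3.43). The transcription factor gene Irf1 stood at 141 and 85.8 CPM, Nlrc5, the activator of MHC class I genes, at 85.6 and 53.3 CPM, and the GTPase gene Gbp2 at 27.2 and 6.18 CPM. Cxcl10, Socs1 and Wars were the other 3 called lower. Without the mature set the list's median was −0.27. The classes differed in this list. In cells of none of the sets 5 of its genes were measured, of which 1 was called lower and 0 higher (median −0.12). In the mature set 9 were measured, 5 lay above 0 and 4 below, 2 were called higher and 3 lower, and the median was 0.33. In the cDC1 set 4 were measured, of which 1 was called higher and 0 lower (median −0.08).

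Many genes induced by interferon gamma carry a short palindrome called GAS. It was searched for as TTCNNNGAA, which is its own reverse complement, in RefSeq promoters of GRCm38.p6, 250 bases before each start. It occurred in 7.02% of 32851 promoters and in 8 of the 16 list genes that had a promoter. Of the 5 called lower that had a promoter, 1 (Irf1) held a match, and of the 3 measured and not called, 2 did. For each of these 3 genes 1 match is shown, to set a list gene that differed beside ones that did not, with the motif in capitals and up to 25 bases on each side, 5′ to 3′ on the gene's strand. The Irf1 match starts 90 bases before the start (promoter chr11:53769764-53770013, plus strand), the Gbp5 match, the nearer to the start of 2 in that promoter, 52 bases (chr3:142496684-142496933, plus strand) and the Socs3 match 154 bases (chr11:117969367-117969616, minus strand).
Irf1: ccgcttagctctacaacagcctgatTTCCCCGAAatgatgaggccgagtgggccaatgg
Gbp5: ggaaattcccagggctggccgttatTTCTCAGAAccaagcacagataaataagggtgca
Socs3: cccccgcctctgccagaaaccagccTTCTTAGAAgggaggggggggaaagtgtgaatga
Irf1 was called lower, whereas Gbp5 (18.6 and 16.2 CPM) and Socs3 (16.9 and 18.5 CPM) were not. A match is a description of letters and not a binding site. The NF-kB consensus, searched on both strands, occurred in 7.25% of all promoters in 0 of the 9 mature list genes that had a promoter, and in 3 of the 16 interferon gamma list genes, Gbp5, Irf1 and Cxcl10, of which the last 2 were among the 5 called lower.

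Transcription factors of dendritic cells stood lower in part. Of 22 measured regulators 4 were called lower and 0 higher, with a median log2 ratio of −0.29. Rel, which encodes the NF-kB subunit c-Rel, stood at 425 and 264 CPM, and Runx3 at 155 and 103 CPM. Nr4a3, an orphan nuclear receptor gene, stood at 43.2 CPM in 40 cells and 7.73 CPM in 6 cells, and Stat5a at 45.0 and 20.9 CPM. Irf8 (418 and 522 CPM), Id2 (644 and 538 CPM), Spi1 (419 and 464 CPM), Relb (282 and 211 CPM), Batf3 (208 and 196 CPM) and Irf4 (16.4 and 16.2 CPM) were not called.

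Of 12 measured genes of the Notch2 and ESAM-high cDC2 list, 2 were called lower. Notch2 itself was not called at 207 and 198 CPM, nor was its DNA-binding partner Rbpj at 133 and 144 CPM. Dtx1, a Notch target, stood at 44.5 and 24.0 CPM, and Cd4 at 25.5 CPM in 31 cells and 11.6 CPM in 10 cells. Esam, a rule gene, stood at 25.5 CPM in 46 of 220 cells and 8.5 CPM in 8 of 118 cells. In cells of none of the sets, Cd4 stood at 41.7 CPM (28.9 to 58.3) and 18.6 CPM (7.46 to 38.2) and Esam at 23.3 CPM (14.03 to 36.4) and 10.6 CPM (2.89 to 27.1). These intervals overlap, and of the 9 list genes measured in those cells 0 were called. Cd7, of the same list, was not called at 124 and 127 CPM.

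NF-kB and inflammation genes had 5 of 28 called lower and 1 higher (Ccl4), with a median of −0.26. Ptgs2, cyclooxygenase 2, stood at 43.2 and 9.27 CPM and the feedback inhibitor Tnfaip3 at 69.6 and 27.8 CPM, and Cxcl2, Bcl2a1a and Rel were the rest. Nfkb1 (402 and 362 CPM) and Nfkbia (411 and 336 CPM) were not called. Bcl2a1a has near-identical copies, so its counts are uncertain. Of 28 immediate early genes 4 were called lower (Dusp2, Nr4a3, Egr3, Nr4a1), and Jun (1525 and 1685 CPM) and Fos (1339 and 1277 CPM) were not. Their median log2 ratio was −0.18 in all members. In cells of none of the sets it was 0.10, with 1 of 23 called higher and 2 lower. The monocyte and macrophage class held 19 and 16 cells, without those of the mature or cDC1 set. In this class 32 of 1288 genes were called higher (2.48%) and 135 lower (10.5%). Of 22 immediate early genes 13 were called lower there and 0 higher, with a median of −0.74. Fos stood there at 1959 and 860 CPM and the transcription factor gene Egr1 at 362 and 41.2 CPM.

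Of 15 MHC class II genes 1 was called lower and 0 higher over all members, with a median of 0.05. The 1 called lower is near the share of all genes called lower (6.97%). Cd74, the invariant chain, stood at 14156 and 15553 CPM, and the beta chain gene H2-Ab1 had 6384 CPM in the low and 7425 CPM in the high B12 library. The gene called lower was H2-Eb2 (126 and 58.7 CPM). Within the mature set 5 of 14 were called higher and 1 lower, with a median of 0.33. Ciita, the activator of MHC class II genes, stood there at 388 and 628 CPM, and H2-DMa, of the peptide-loading complex, at 361 and 541 CPM. Of 23 MHC class I genes 4 were called lower: Nlrc5, the peptide-trimming gene Erap1 (44.1 and 27.0 CPM) and the class Ib genes H2-Q4 and H2-Q6, whose sequences are alike and whose counts are uncertain. Of 15 co-stimulation and checkpoint genes 2 were called lower, Cd274 and Cd200 (51.9 and 17.0 CPM). Cd86 (193 and 134 CPM) and Cd83 (202 and 146 CPM) were not.

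Type I interferon response genes had 2 of 33 called each way, with a median of 0.01. Of 21 heat shock chaperone genes 19 lay above 0 and 1 was called (Bag3, 38.5 and 58.7 CPM), and of 45 oxidative phosphorylation genes 41 lay above 0 and 1 was called (Sdhc, 27.2 and 43.3 CPM). Their medians were 0.19 and 0.18. Of 18 glycolysis genes 0 were called. Of 20 survival and death genes 5 were called lower, among them Birc2 (114 and 71.9 CPM), Bcl2a1a, Fas and Bcl2l11, and Mcl1 (405 and 379 CPM) was not called. Of 15 glucocorticoid response genes 3 were called lower and 0 higher, with a median of −0.24. They were Tsc22d3 (123 and 74.96 CPM), Cxcr4 and Ddit4 (21.2 and 7.73 CPM). Of 4 measured B cell genes 3 were called lower, Bank1 (32.4 and 18.5 CPM), Cd22 (31.6 and 17.0 CPM) and Igkc (29.0 and 7.73 CPM), with a median of −0.83, and their part in the other differences was not tested. Of 12 cDC1 genes 1 was called higher, Cd8a (13.8 and 27.8 CPM). Xcr1 (44.5 and 64.9 CPM) and Clec9a (73.5 and 87.3 CPM) were not.

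Genes of vitamin B12 handling were sparse. Of 18 listed genes 5 were measured and 0 called either way. Mtr, methionine synthase, which uses B12 as its cofactor, stood at 19.9 CPM (46 UMIs) and 24.7 CPM (32 UMIs). Mmut, methylmalonyl-CoA mutase, had 21 and 7 UMIs, and Cd320, the receptor for B12 bound to transcobalamin, had 14 and 3 UMIs, all below the count minimum. Of 7 measured folate and methionine cycle genes 0 were called. Tet2, the methylcytosine dioxygenase of the series title, stood at 154 CPM in 158 cells and 139 CPM in 79 cells, a ratio of 0.90 (0.75 to 1.08). Of 14 measured Tet and DNA methylation genes 1 was called lower, Bcor (31.6 and 17.8 CPM), which is near the share of all genes called lower (6.97%).

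**Figure D5:**
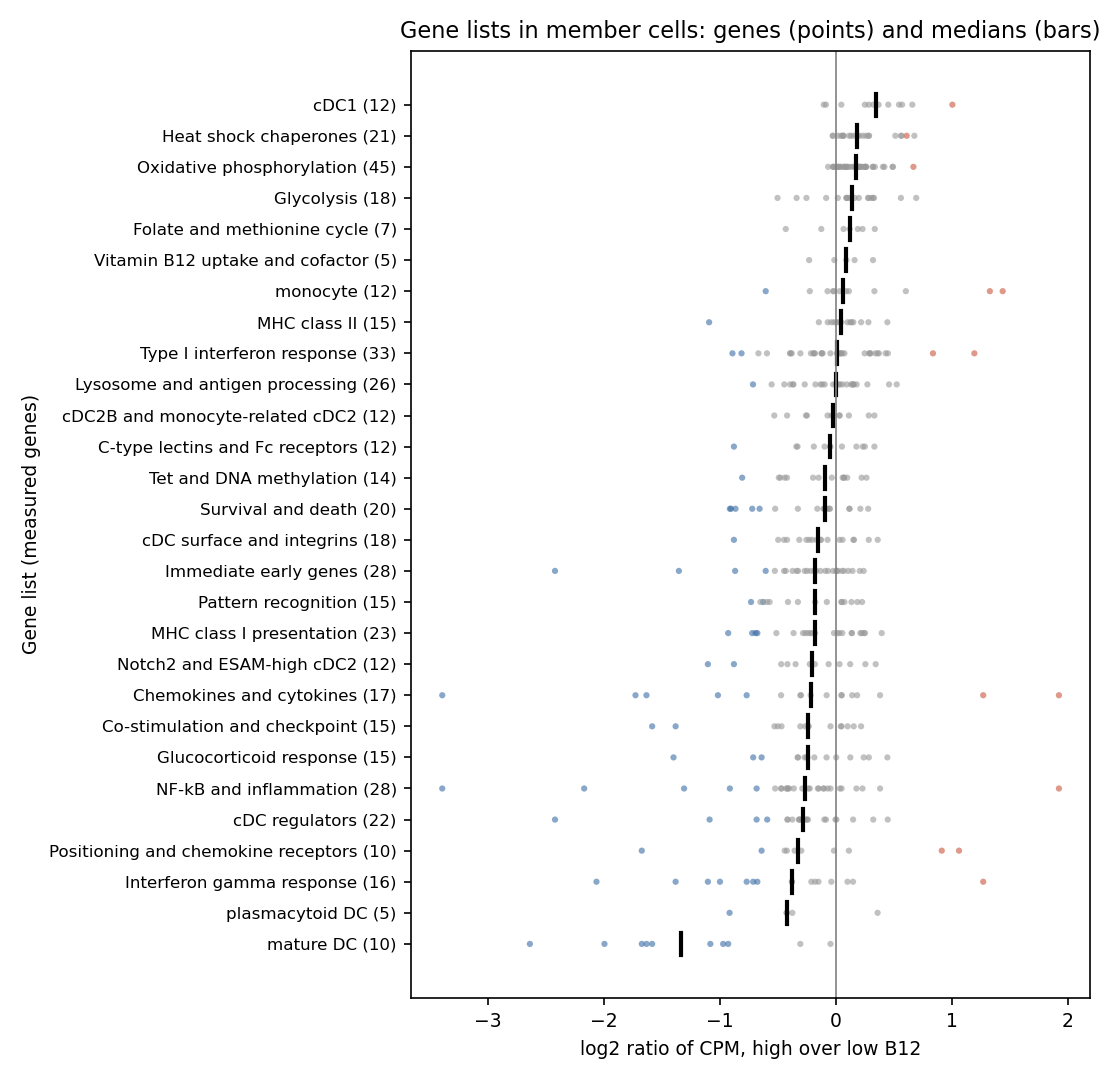
Log2 ratio of CPM, high over low B12, for the measured genes (points) of each gene list with at least 5, with list medians as bars and the number of measured genes in brackets; red points were called higher and blue ones lower. The mature dendritic cell list has the lowest median (−1.33) and the cDC1 list the highest (0.35) of those drawn.

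Cells of none of the 8 sets were compared alone (89 and 44 cells). Of 3513 genes 111 were called higher (3.16%) and 265 lower (7.54%). Ccl4 (152 and 639 CPM), Hk2, the hexokinase 2 gene (128 and 297 CPM), the endolysosomal gene Tmem176b (261 and 482 CPM), Crip1 (833 and 1402 CPM), Ifitm3 (995 and 1532 CPM) and the co-chaperone gene Bag3 (31.9 and 109 CPM) were among those called higher. Tbc1d4, Mreg (132 and 31.8 CPM), the phosphatase gene Dusp2 (285 and 111 CPM), Kmt2c (269 and 117 CPM), Lyst (905 and 474 CPM) and the adhesion receptor gene Cd44 (123 and 45.0 CPM) were among those called lower. Ccl5 stood at 185 and 220 CPM here, with intervals that overlap (157 to 217 and 175 to 273 CPM). Its log2 ratio of 0.25 was opposite in sign to that of all members, but it was not called. S100a8 and S100a9 were higher here too (42.9 and 183 CPM, 50.3 and 217 CPM), and their part in the other values was not tested.

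Cells of the cDC1 set (41 and 26 cells) had 97 of 2870 genes called higher (3.38%) and 150 called lower (5.23%). Gsr stood at 44.7 and 198 CPM, Fdps at 109 and 256 CPM and Klrk1 at 103 and 206 CPM in them. Lower were the stress factor gene Atf3 (401 and 167 CPM) and the glucocorticoid-induced gene Tsc22d3 (157 and 77.4 CPM).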

How the data were processed

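The authors deposited raw UMI counts per gene and barcode, empty droplets included, which the matrix headers credit to Cell Ranger 4, while version 2.1.1 stands in the submitters' processing notes. The labels' protocols name a 10x 3′ v2 kit. The files hold 1256219 (low B12) and 1053362 barcodes, more than that kit's list, so the kit is uncertain. Which genome build was used is not given in the sources used here. GRCm38 positions come from GENCODE M21, which holds 99.6% of the 32285 gene IDs. The libraries held 48884220 (low B12) and 46994991 UMIs.

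UMIs of member cells were summed per library and scaled to CPM. Ratios carry exact conditional binomial, levels exact Poisson and shares exact binomial intervals, and 0.5 UMI was added for log2 ratios. There was 1 library per group and so no p-value, and whether a library holds 1 or several mice is not given. Named genes are up to 12 each way, ranked by the interval bound nearest to 1, at 100 CPM or more in a library, without mitochondrial, ribosomal protein, haemoglobin, immunoglobulin, predicted and rule genes and Xist, plus up to 5 of the most abundant genes of each list and fixed genes such as Tet2 and Mtr; beside the Cd209a cells up to 10 each way. Further list genes, called ones above all, and genes of the classes were chosen after their values were seen. The members and the 35 gene lists were chosen with earlier results of these data known.

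Alternatives changed the scaling, cell weights, depth (3000 UMIs), doublets (Scrublet in scanpy 1.11.5), rule limits and gene minimum. Scripts ran in Python 3.11.15 with scipy 1.17.1 and were tested on simulated counts. No column was left unused. Some genes picked by these rules are not reported.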

Additional observations from a re-analysis of the deposited data

How the results depend on the processing

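No paired analysis was possible because each group has 1 library. The share difference of −1.63 points lay between −1.35 and −2.00 points under 6 alternatives. It was −0.263 points when cells were thinned to 3000 UMIs before the rule, which also leaves out cells with fewer UMIs. Over all members 208 genes were called higher and 480 lower. With the members thinned the counts were 89 and 233, of which 21 and 130 were also called over all members unthinned. In the separate comparison of cells of none of the 8 sets, over 3513 genes, they were 111 and 265, of which 21 and 106 were also called over all members. At a gene minimum of 100 UMIs 99 were called higher, and without the mature set, an alternative added after the data were seen, 134; thinning, fewer cells and a higher minimum each leave fewer genes or UMIs by construction. Scaling by the median ratio of genes, a shift of 0.04 (log2), gave 255 higher and 413 lower. In cells of none of the 8 sets Ccl5 was at 0.25 and Fdps at −0.50, and Fdps was at −0.25 with a 5-gene sum of at least 6, each opposite to its value in all members; the cause was not tested. Of 17 named genes measured in cells of none of the sets, 9 moved past their interval and 2 reversed. Of 24 named genes 9 moved after thinning, 6 with cells weighted the same and 5 at a sum of at least 6, and of 21 measured without the mature set 6 moved. List medians moved past their spread for the cDC2B list (0.12 with cells weighted the same, 0.17 thinned, 0.18 without the mature set), MHC class II (0.15), immediate early genes (0.10) and survival genes (0.15) in cells of none of the sets, Tet and DNA methylation (0.17 thinned), oxidative phosphorylation (0.22 by median ratio, 0.21 at a 5-gene sum of 6) and the monocyte list (−0.086 at a sum of 6). The cDC2B, immediate early, Tet, survival and monocyte medians thereby changed sign. Depth limits genes under 50 UMIs in both libraries together, among them Mmut and Cd320.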

Other observations

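A few high B12 cells of the cDC1 set held UMIs of monocyte and neutrophil genes. Among the 41 low and 26 high B12 cells of that set, Chil3, a chitinase-like gene of monocytes, had 1 UMI in 1 low B12 cell and 44 in 4 high B12 cells. Ly6c2 had 6 UMIs in 4 cells and 32 in 3 cells, and Csf3r, the receptor gene for granulocyte colony-stimulating factor, had 13 in 5 cells and 40 in 4 cells. Fn1, fibronectin, had 0 UMIs in the low B12 cells and 30 in 2 high B12 cells. Lyz2 was present in most cells of both, at 601 CPM in 39 of 41 and 1434 CPM in 22 of 26. These genes were chosen after their values were seen, and whether doublets or free RNA take part was not tested.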
